A study of Mus musculus with 9 samples.

Results

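Genes of cholesterol and fatty acid synthesis were followed in mouse cerebellum at postnatal day 5, in mice that express an activated form of Smoothened and in wild type mice. A list of 30 genes of these pathways was taken, and 27 of them had a probe set with that single gene symbol in the platform annotation, out of 19147 genes measured in all. Each gene was read from 1 probe set, the one with the highest mean over the 9 arrays, and the 27 genes had 46 probe sets among them. Fdft1, Acat2 and Srebf1 were not analysed here.

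There were 3 groups of 3 mice, each mouse measured on 1 array: SmoA2, Smo/Smo and wild type. All carry the strain label C57BL/6 and the tissue label brain, and the design text gives the tissue as cerebella. The SmoA2 line carries a transgene with the SmoA2 mutation of Smoothened, and the related SmoA1 line was made in the same way. A fragment of the ND2 (Neurod2) promoter drives both transgenes in granule neuron precursors, so that in these models activated Smoothened is expressed in that cell type while RNA was taken from the whole tissue. The sample labels call the remaining group Smo/Smo and do not name SmoA1, so reading it as the SmoA1 line rests on elimination. Animal codes of SmoA2 and wild type mice share a prefix that Smo/Smo mice lack, so source and genotype cannot be told apart in Smo/Smo. Whether the arrays of a group come from separate litters is not stated, and the p-values measure the spread between these mice.

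Cholesterol is built from acetyl-CoA through mevalonate, isoprenoid diphosphates, squalene and lanosterol, and fatty acids are built from the same precursor through malonyl-CoA. Transcription of both pathways is controlled by sterol regulatory element-binding proteins (SREBPs), which Scap carries out of the endoplasmic reticulum when sterols are low and which Insig proteins hold back. The brain makes its own cholesterol, since lipoproteins of the blood do not enter it freely. Hedgehog signalling depends on sterols, as the Sonic hedgehog (Shh) ligand carries a covalently bound cholesterol and Smoothened itself binds sterols.

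The deposited values are RMA intensity on a linear scale, read here as log2, and array medians lay between 91 and 95.1 before the log was taken. Members ranged from 7.22 to 13.42 on the log2 scale, all above the 2.8 to 5.57 of 3 Y-linked genes in the arrays of female mice, an indication of background. The markers of the cerebellar granule lineage were all 10 measured, with a mean of 10.60 to 10.81 in SmoA2, 10.87 to 10.92 in Smo/Smo and 10.76 to 10.79 in wild type. Shh pathway targets checked the labels: 7 of 9 rose in SmoA2 (77.8%, against 0.961% of all genes), among them Gli1 (log2 fold change 0.50) and Ptch1 (0.26). In SmoA2, 1 of the 9 went the other way, at -0.24. Its unadjusted p was under 0.05 in limma, and its SmoA2 arrays lay below all wild type arrays. None of the 9 passed the test in Smo/Smo. At an unadjusted p under 0.05 in limma, 3 of them were higher in Smo/Smo (against 4.89% of all genes) and none was lower. In 5 of them all Smo/Smo arrays lay above all wild type arrays (55.6%, against 7.82% of all genes), and in none below. Choroid plexus markers had means of 9.02 to 9.28 in SmoA2, 9.29 to 9.56 in Smo/Smo, and 8.53, 8.43 and 6.14 in wild type, where replicate 3 stood apart. The array weight estimated by limma was lowest for SmoA2 replicate 3 (0.386). Within groups the members had a median standard deviation of 0.07 in SmoA2, 0.06 in Smo/Smo and 0.06 in wild type, against 0.098, 0.067 and 0.065 in the same groups over genes with a mean log2 above 6.

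The first question was which lipid synthesis genes differ between the newly described SmoA2 line and wild type. Most members stood slightly lower in SmoA2, and 3 of 27 passed the test. Mvd, which makes isopentenyl diphosphate from mevalonate diphosphate, fell by 19.1%. Scd1, a desaturase that introduces the double bond of oleate, fell by 21.6%, and Fasn, the fatty acid synthase, fell by 16.7%. No member rose, against 0.961% of all genes. The 3 that fell are 11.1% of the members, and 1.73% of all genes fell (2.69% were called in either direction, with limma and a Benjamini-Hochberg adjusted p under 0.05 over all genes). All genes include many of low intensity, and all members lay above a mean log2 of 6. Fitted on the 12029 genes above 6, 776 were called in either direction, with the same 3 members among them. Over all 19147 genes 515 were called, so the share called was larger among genes as bright as the members. The excess of the members is therefore smaller against such genes than against all genes. Shares by direction, by unadjusted p and by overlap were not counted among genes above 6. The log2 fold change was below 0 in 22 of 27 members (81.5%), against 47.9% of all genes. At an unadjusted p under 0.05 in limma, 9 members were lower (33.3%, against 8.18% of all genes) and none was higher (6.61%). The median over the members was -0.12 on the log2 scale, and over all genes it was 0.01. All 3 arrays of SmoA2 lay below all 3 of wild type in 12 members (44.4%), against 10.2% of all genes, and in no member did they lie above, against 8.89%. Among the 12, Scd2 and Tm7sf2 were separated only narrowly.

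**Figure D1:**
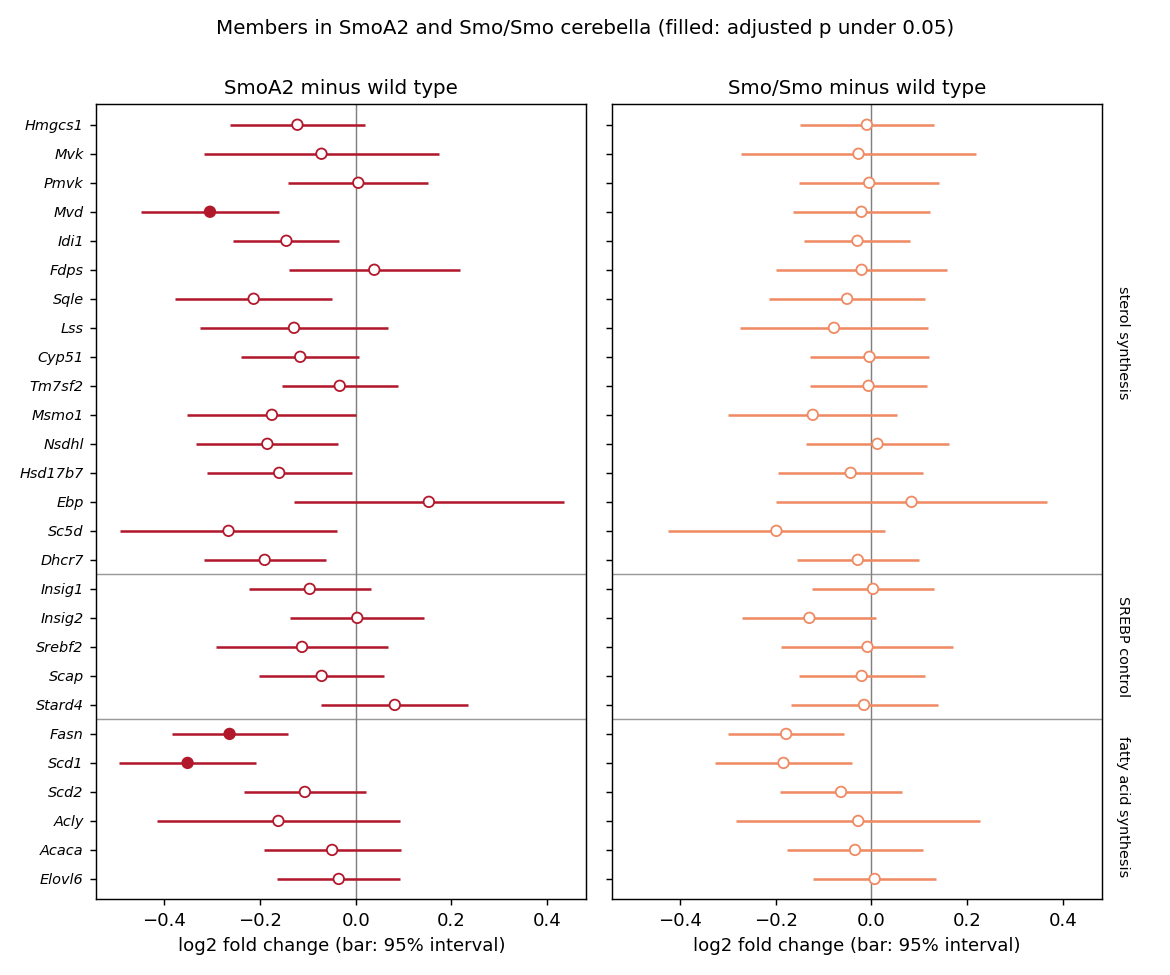
log2 fold changes of the 27 members (points) with 95% intervals from limma (bars), SmoA2 minus wild type on the left and Smo/Smo minus wild type on the right, 3 arrays a group, where filled points have an adjusted p under 0.05. On the left Mvd, Fasn and Scd1 are filled and 22 of 27 points lie below 0, while on the right no point is filled and the points lie nearer 0, with a median of -0.03.

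These calls lie close to the threshold. Leaving out 1 array at a time ended the call of Fasn in 9 of 9 fits (adjusted p up to 0.115), that of Mvd in 8 of 9 (up to 0.143), all but the fit without SmoA2 replicate 3, and that of Scd1 in 4 of 9 (up to 0.0874), namely on removal of replicate 2 or 3 of wild type, or of replicate 1 or 3 of SmoA2. Without wild type replicate 3 no member was called, yet 25 of 27 lay below 0 and the median was -0.13; without that array and SmoA2 replicate 3 the count called was again 0, with 25 below 0 and a median of -0.09.

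Promoters of the members were searched for motifs of factors known to control these pathways. RefSeq promoter windows of GRCm38.p6, from 250 bases before to 50 after a start site, were found for 22 of the 27 members, 28 windows in all. Scd1, which fell in SmoA2, had no window, nor had Scd2, Sqle, Fdps and Stard4. The classical sterol regulatory element, searched as TCACNCCAC on both strands, occurred in 1 of 28 member windows, that of Hmgcs1, and in 1.24% of all 32851 windows. The CCAAT box, bound by NF-Y, which works together with SREBPs at sterol promoters, was searched as CCAAT on both strands and occurred in 19 of 28 member windows (67.9%), against 37.4% of all windows. These shares are descriptions of letters in these windows. The 250 bases before the start are given for Hmgcs1, which holds the element, and for Mvd and Fasn, which fell in SmoA2, 5′ to 3′ on the strand of the gene. Capitals mark matches to both motifs, and ATTGG is CCAAT on the other strand.
Hmgcs1 (chr13:119690101-119690350, plus strand): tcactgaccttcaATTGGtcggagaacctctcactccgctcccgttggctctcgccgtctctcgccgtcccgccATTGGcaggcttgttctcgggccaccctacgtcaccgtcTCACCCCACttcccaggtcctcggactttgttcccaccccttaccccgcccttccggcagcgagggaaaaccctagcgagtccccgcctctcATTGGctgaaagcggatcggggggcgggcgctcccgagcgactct
Mvd (chr8:122443423-122443672, minus strand): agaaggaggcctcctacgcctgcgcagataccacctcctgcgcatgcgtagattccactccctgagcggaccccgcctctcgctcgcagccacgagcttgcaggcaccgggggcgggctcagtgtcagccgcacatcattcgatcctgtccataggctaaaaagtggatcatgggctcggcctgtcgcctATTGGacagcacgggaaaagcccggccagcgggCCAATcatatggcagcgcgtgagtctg
Fasn (chr11:120824548-120824797, minus strand): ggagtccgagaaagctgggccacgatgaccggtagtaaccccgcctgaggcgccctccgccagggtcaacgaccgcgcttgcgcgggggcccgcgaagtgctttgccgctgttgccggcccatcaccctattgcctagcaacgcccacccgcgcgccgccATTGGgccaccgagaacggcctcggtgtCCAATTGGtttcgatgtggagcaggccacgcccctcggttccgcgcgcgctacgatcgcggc
Hmgcs1 holds 3 CCAAT boxes here beside the element, Mvd holds 2 and Fasn holds 3, of which a pair overlaps in a palindrome. The RefSeq record of Fasn reaches to base 120825166, so this window lies inside the span of the gene, upstream of the start used in the table. In SmoA2, Hmgcs1 stood at -0.12 with no call, beside -0.30 for Mvd and -0.26 for Fasn. A link between these motifs and the changes was not tested.

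Among enzymes that lead from acetyl-CoA to farnesyl diphosphate, Mvd had the only call. Mvd had log2 intensities of 9.70, 9.65 and 9.80 in SmoA2, 10.07, 10.01 and 9.94 in Smo/Smo, and 10.03, 10.06 and 9.98 in wild type. The SmoA2 arrays lay below the arrays of both other groups with no overlap. The difference from wild type was -0.30 ± 0.06 on the log2 scale (SE, n = 3 per group, limma adjusted p = 0.0405). Hmgcs1, the synthase that makes HMG-CoA, had 13.17, 13.28 and 13.21 in SmoA2, against 13.32, 13.32 and 13.39 in wild type. These groups did not overlap either, but the difference of -0.12 ± 0.06 did not pass (limma adjusted p = 0.412). Idi1, the isomerase that follows Mvd, had 11.21, 11.18 and 11.20 in SmoA2, 11.30, 11.30 and 11.34 in Smo/Smo, and 11.34, 11.33 and 11.36 in wild type. Its arrays were the least spread of any member in SmoA2 (standard deviation 0.02), and its difference from wild type was -0.15 (95% interval -0.26 to -0.03, limma adjusted p = 0.195). The phosphorylating enzymes of the pathway, Mvk and Pmvk, gave -0.07 and 0.01, and farnesyl diphosphate synthase (Fdps) gave 0.04, with overlapping groups in each. Their 95% intervals were -0.32 to 0.17 for Mvk, -0.14 to 0.15 for Pmvk and -0.14 to 0.22 for Fdps. The sign of Mvk turned without wild type replicate 2 or SmoA2 replicate 1, that of Fdps without wild type replicate 3, and that of Pmvk in 4 of 9 fits with 1 array left out.

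Among the enzymes from squalene to cholesterol none passed the test over all genes, and the log2 fold change between SmoA2 and wild type was below 0 in 9 of 10. Sqle, the squalene epoxidase, had 10.19, 10.08 and 10.04 in SmoA2, against 10.29, 10.44 and 10.22 in wild type. The SmoA2 arrays lay below those of wild type, with a log2 fold change of -0.21 ± 0.07 (limma adjusted p = 0.197). All 5 probe sets of Sqle were below 0, between -0.24 and -0.13. Dhcr7, the reductase that makes cholesterol from its dehydro precursor, had 10.85, 10.93 and 10.93 in SmoA2, 11.06, 11.10 and 11.03 in Smo/Smo, and 11.04, 11.10 and 11.15 in wild type. Its SmoA2 arrays again lay below both other groups, and the difference from wild type was -0.19 ± 0.06 (limma adjusted p = 0.141). With an intensity trend and robust eBayes, Dhcr7 was called as well (adjusted p = 0.0476).

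Nsdhl, an X-linked dehydrogenase that takes part in removing methyl groups from sterols, had 7.22, 7.30 and 7.37 in SmoA2, against 7.56, 7.46 and 7.43 in wild type (log2 fold change -0.185, limma adjusted p = 0.219). The value was -0.18 with sex as a covariate, at 2 males and 1 female in SmoA2 and 1 male and 2 females in wild type. Hsd17b7, a ketosteroid reductase of the same step, gave -0.16, and Cyp51, the lanosterol demethylase, gave -0.12 on the probe set used and -0.14 on its other probe set. The groups did not overlap in Nsdhl, Hsd17b7, Cyp51 or Tm7sf2, a sterol reductase at -0.03. In Tm7sf2 the gap was narrow, with SmoA2 up to 9.457 and wild type down to 9.459. Sc5d, a sterol desaturase, had 8.91, 9.04 and 9.18 in SmoA2, against 9.30, 9.15 and 9.47 in wild type. Here SmoA2 replicate 3 lay above wild type replicate 2, so the groups overlapped, while its 3 probe sets gave -0.29 to -0.21. The methylsterol oxidase Msmo1 stood at -0.18 and lanosterol synthase (Lss) at -0.13. In Lss, SmoA2 replicate 3 lay at 9.20, below the 9.43 and 9.53 of the other SmoA2 arrays. Without that array the value of Lss was -0.04.

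Ebp, the X-linked sterol isomerase, ran against the rest. It had 10.28, 10.31 and 10.77 in SmoA2, against 10.38, 10.27 and 10.26 in wild type. SmoA2 replicate 3 alone lay above the other arrays, and the log2 fold change of 0.15 was -0.01 without it.

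**Figure D2:**
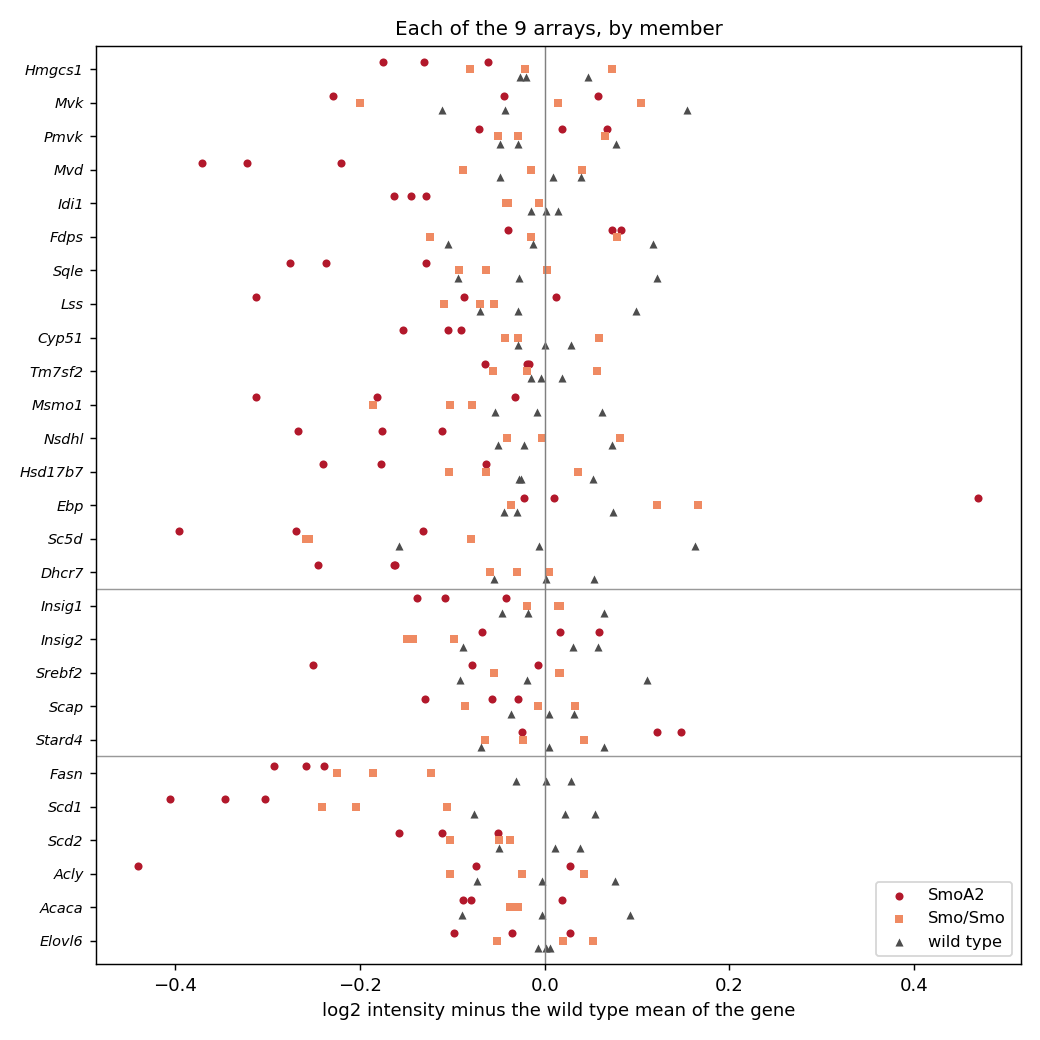
log2 intensity of each of the 9 arrays minus the wild type mean of that gene, for the 27 members, with circles for SmoA2, squares for Smo/Smo and triangles for wild type. SmoA2 circles lie left of all wild type triangles in 12 members, and single SmoA2 arrays stand apart in Ebp and Acly.

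Genes that control SREBPs or move sterols gave no call in SmoA2. Srebf2, the SREBP that mainly drives sterol synthesis genes, had 12.12, 12.20 and 11.95 in SmoA2, against 12.18, 12.11 and 12.31 in wild type. The groups overlapped, and the log2 fold change was -0.11 (95% interval -0.29 to 0.07). It was -0.04 without SmoA2 replicate 3, -0.06 without wild type replicate 3 and 0.01 without both. Its other probe sets gave -0.09 and 0.02. Insig1, itself induced by SREBPs, gave -0.10 (-0.22 to 0.03) and Insig2 gave 0.00 (-0.14 to 0.14). Scap gave -0.07 (-0.20 to 0.06), and Stard4, a soluble carrier of sterols, gave 0.08 (-0.07 to 0.24). All 3 probe sets of Stard4 were above 0, between 0.04 and 0.16, with none called. The Mvd value of -0.30 lay below the intervals of Srebf2, Insig1 and Scap, but the interval of Mvd itself (-0.45 to -0.16) overlapped each of them. Differences between genes were not tested.

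All 6 genes of fatty acid synthesis had a log2 fold change below 0 in SmoA2, and 2 passed the test. Scd1 had 11.36, 11.46 and 11.42 in SmoA2, 11.53, 11.56 and 11.66 in Smo/Smo, and 11.69, 11.79 and 11.82 in wild type. On this probe set the 3 groups stood in steps with no overlap, SmoA2 lowest and wild type highest. SmoA2 differed from wild type by -0.35 ± 0.06 (limma adjusted p = 0.0219). The other Scd1 probe set, with means of 6.77 in SmoA2, 6.73 in Smo/Smo and 6.98 in wild type, did not show these steps. It gave -0.21 in SmoA2 against wild type (limma adjusted p = 0.457 over all probe sets) and 0.04 in SmoA2 against Smo/Smo. When its probe sets were averaged, Scd1 was not called (-0.28, adjusted p = 0.0694). Fasn had 8.37, 8.42 and 8.40 in SmoA2, 8.47, 8.54 and 8.43 in Smo/Smo, and 8.63, 8.66 and 8.69 in wild type. Its groups too stood in steps with no overlap, and SmoA2 differed from wild type by -0.26 ± 0.05 (limma adjusted p = 0.0371). The lower step of Fasn was narrow, with SmoA2 up to 8.42 and Smo/Smo down to 8.43. SmoA2 minus Smo/Smo gave -0.09 in Fasn (limma adjusted p = 0.556) and -0.17 in Scd1 (0.261). Smo/Smo was not called against wild type in either gene. The share of all genes ordered in such steps was not counted.

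The other genes of that class moved less. Scd2, the desaturase that predominates in developing brain, had 13.21, 13.15 and 13.10 in SmoA2, against 13.27, 13.21 and 13.30 in wild type (-0.11, limma adjusted p = 0.43). Its groups did not overlap, but only narrowly, with SmoA2 up to 13.212 and wild type down to 13.213. The other Scd2 probe set gave -0.02. Scd genes are close paralogs, and cross-hybridisation between them was not checked, as no probe sequences were used here. Acly, which makes cytosolic acetyl-CoA from citrate, had 8.46, 8.56 and 8.09 in SmoA2, against 8.53, 8.61 and 8.46 in wild type. The low value of SmoA2 replicate 3 carried most of its log2 fold change of -0.16, which was -0.02 without that array. Acetyl-CoA carboxylase (Acaca) gave -0.05 (95% interval -0.19 to 0.09) and the elongase Elovl6 gave -0.04 (-0.16 to 0.09).

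**Figure D3:**
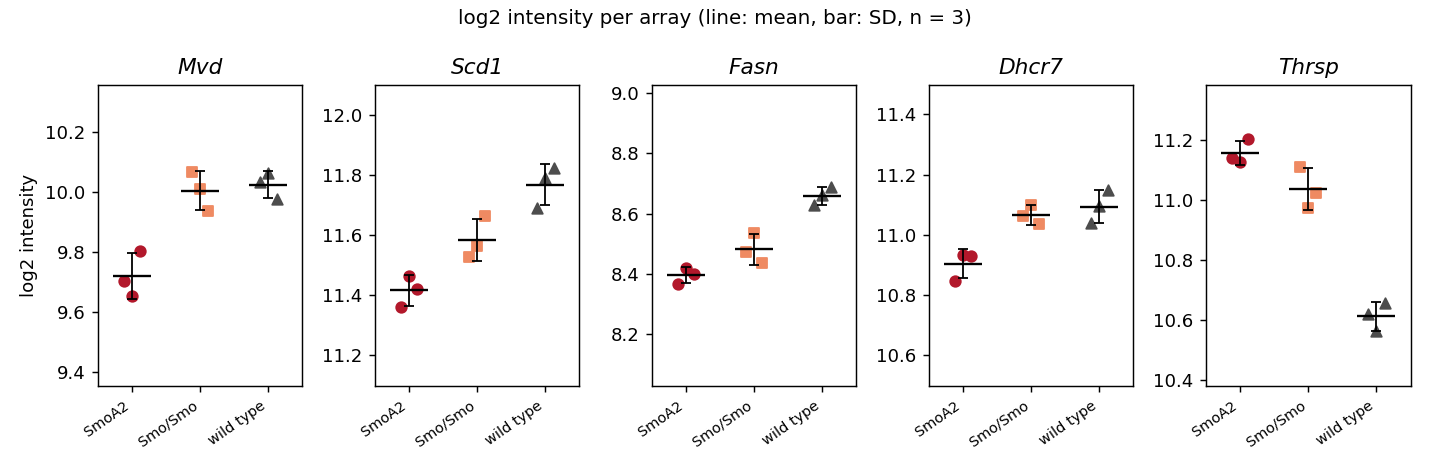
log2 intensity of Mvd, Scd1, Fasn, Dhcr7 and Thrsp in each array, with SmoA2, Smo/Smo and wild type from left to right, the group mean as a line and the standard deviation as a bar (n = 3), every panel spanning 1 log2 unit. On the probe sets used, Scd1 and Fasn stand in steps from SmoA2 through Smo/Smo up to wild type. In both, Smo/Smo was called against neither other group. Mvd and Dhcr7 lie lowest in SmoA2 with no overlap, and Thrsp is higher in both mutant groups than in wild type.

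In Smo/Smo, limma called none of the 27 members against wild type, while 0.371% of all genes were called. At an unadjusted p under 0.05, 2 members were lower (7.41%, against 3.88% of all genes) and none was higher (4.89%), beside 8.77% of all genes in either direction. Those members were Fasn, at -0.18 ± 0.05 (limma adjusted p = 0.338), and Scd1, at -0.18 ± 0.06 (0.436), both of which fell in SmoA2. The wild type arrays are shared by both comparisons, so these values are not independent of those above. The log2 fold change was below 0 in 23 of 27 members (85.2%), against 47.8% of all genes, and the median was -0.03. That median was -0.01 without wild type replicate 2 and -0.04 without wild type replicate 3. The count below 0 was 16 without wild type replicate 2 and 17 without Smo/Smo replicate 3. The groups did not overlap in Msmo1, Insig2, Fasn and Scd1, which were lower in Smo/Smo (14.8% of the members, against 8.12% of all genes), and in no member were they higher (7.82%). Mvd stood at -0.02 (95% interval -0.16 to 0.12), Dhcr7 at -0.03 (-0.16 to 0.10) and Idi1 at -0.03 (-0.14 to 0.08). Sc5d stood at -0.20 (-0.43 to 0.03), and its other probe sets gave -0.16 and -0.36. Other probe sets of some members lay further below wild type in Smo/Smo than those used, at -0.40 for Hsd17b7, -0.30 for Acaca, -0.29 for Scd2 and -0.25 for Scd1, with none called.

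Set directly against each other, SmoA2 and Smo/Smo differed in no member at the threshold, while 2.56% of all genes were called (1.02% higher and 1.54% lower in SmoA2). The difference was below 0 in 22 of 27 members, against 51.1% of all genes. With averaged probe sets it was below 0 in 19, as Acaca, Hsd17b7 and Scd2 turned sign. Mvd came closest, at -0.28 ± 0.06 (limma adjusted p = 0.0535). It passed in the fit without SmoA2 replicate 3 (adjusted p = 0.0435) and in 4 of 10 other settings. At an unadjusted p under 0.05, 5 members were lower in SmoA2 (18.5%, against 8.12% of all genes) and none was higher (6.2%). The SmoA2 arrays lay below those of Smo/Smo in 9 members (33.3%, against 10.1% of all genes), namely Mvd, Idi1, Sqle, Cyp51, Nsdhl, Dhcr7, Insig1, Fasn and Scd1, and above them in Insig2 (3.7%, against 8.12%). The median difference was -0.07. In the moderated F test over the 3 groups Scd1 alone was called (adjusted p = 0.0456), beside 2.89% of all genes.

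Other genes of lipid metabolism, from lists drawn up beside the members, gave few calls. Of 32 fatty acid genes measured, Thrsp (Spot14), a regulator of lipid synthesis, rose and none fell in SmoA2. Thrsp had 11.14, 11.13 and 11.20 in SmoA2, 11.11, 10.97 and 11.02 in Smo/Smo, and 10.62, 10.56 and 10.66 in wild type. Both mutant groups lay above wild type with no overlap, at 0.54 ± 0.06 in SmoA2 (limma adjusted p = 0.00199) and 0.42 ± 0.06 in Smo/Smo (0.022). The SmoA2 call held in all 9 fits with 1 array left out, and the Smo/Smo call was lost in 6 of 9 (adjusted p up to 0.118), those without any 1 array of wild type or Smo/Smo. The median of these 32 genes was -0.03 in SmoA2 and 0.00 in Smo/Smo. At an unadjusted p under 0.05 in limma, 7 of the 32 were lower in SmoA2 (21.9%, against 8.18% of all genes) and 1 was higher. The SmoA2 arrays lay below those of wild type in 6 of them (18.8%, against 10.2% of all genes) and above in 1. Of the 32, 18 were below 0 in SmoA2 (56.2%, against 47.9% of all genes). Lower genes at that unadjusted p were thus more frequent in this list than over all genes, as in the members, while its median lay near 0.

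Of 20 genes of sterol uptake, transport and storage, 1 fell in SmoA2. Lcat, which esterifies cholesterol in lipoproteins, had 8.65, 8.72 and 8.62 in SmoA2, 9.35, 9.37 and 9.11 in Smo/Smo, and 9.04, 9.11 and 9.06 in wild type. SmoA2 lay below wild type and Smo/Smo above it, at -0.41 ± 0.08 (limma adjusted p = 0.0247) and 0.21 ± 0.08 (0.474). The SmoA2 call was lost in 5 of 9 fits with 1 array left out, those without any 1 array of wild type and without SmoA2 replicate 1 or 3 (adjusted p up to 0.0954). Abcg1, a sterol exporter, was higher in SmoA2 than in Smo/Smo (0.37 ± 0.08, adjusted p = 0.0419), a call lost in 8 of 9 such fits, all but that without SmoA2 replicate 3 (up to 0.143), and it gave 0.24 against wild type (adjusted p = 0.173). The median of these 20 genes in SmoA2 was -0.015. At an unadjusted p under 0.05 in limma, 4 of the 20 were lower in SmoA2 (20%, against 8.18% of all genes) and 1 was higher.

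Of 10 measured enzymes of sterol and isoprenoid metabolism outside the members, Icmt, which methylates prenylated proteins, rose in SmoA2 (0.34 ± 0.07, limma adjusted p = 0.0459), a call lost in 8 of 9 fits with 1 array left out, all but that without SmoA2 replicate 3 (up to 0.134). Fntb, the beta subunit of protein farnesyltransferase, fell in Smo/Smo. It had 9.87, 9.89 and 9.95 in SmoA2, 9.55, 9.54 and 9.54 in Smo/Smo, and 9.95, 9.94 and 9.89 in wild type. The Smo/Smo arrays lay apart from all others, at -0.38 ± 0.05 against wild type (limma adjusted p = 0.0198), a call lost in the 6 fits without any 1 array of wild type or Smo/Smo (up to 0.108). None of 7 oxysterol genes and none of 6 genes of SREBP processing was called in SmoA2 or Smo/Smo. In SmoA2 the lowest p among oxysterol genes belonged to Cyp27a1 (-0.34, adjusted p = 0.272), whose wild type mean of 4.66 lay within the background range, Hsd3b7 (-0.17) and Cyp46a1 (-0.12). Among the processing genes it belonged to Spring1 (-0.23, adjusted p = 0.185), a cofactor of SREBP cleavage, Erlin2 (-0.08) and Mbtps1 (-0.02).

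Markers of several cell types moved together with the members in SmoA2. In bulk tissue, fewer cells of a type and less RNA per cell cannot be told apart. Of 14 markers of Bergmann glia and astrocytes, 11 were below 0 in SmoA2 and 2 fell (14.3%, against 1.73% of all genes), Gdf10 (-0.59) and Gjb6 (-0.95). All SmoA2 arrays lay below all wild type arrays in 8 of the 14 (57.1%, against 10.2% of all genes). They lay above in 2 (14.3%, against 8.89%). The mean log2 of the list was 11.05 to 11.12 in SmoA2, 11.29 to 11.32 in Smo/Smo and 11.32 to 11.36 in wild type. Of 8 Purkinje cell markers, 4 fell in SmoA2 (50%, against 1.73% of all genes), namely Pcp2, Rora, Lhx5 and Dab1. Their list had means of 10.20 to 10.35, 10.62 to 10.65 and 10.66 to 10.68 in the same groups. Of 11 markers of meninges and fibroblasts, 7 fell in SmoA2 (63.6%, against 1.73% of all genes), with list means of 9.57 to 9.88, 10.18 to 10.24 and 10.26 to 10.31. Another 1 of the 11 lay above wild type with no overlap, at 0.385, with an unadjusted p under 0.05 in limma. In each of these lists the SmoA2 means lay below those of both other groups with no overlap, as the means of the members did, at 10.44 to 10.47 in SmoA2, 10.51 to 10.54 in Smo/Smo and 10.56 to 10.59 in wild type. Of 11 oligodendrocyte markers none was called in SmoA2, and Olig1 (0.40), Olig2 (0.23) and Mbp (-0.25) had the lowest p. The list means overlapped, at 8.69 to 8.85 in SmoA2, 8.75 to 9.0 in Smo/Smo and 8.64 to 8.83 in wild type. Over all genes, 8.89% lay above wild type with no overlap in SmoA2 and 7.82% in Smo/Smo. All 10 choroid plexus markers did so in both mutant groups, with a median log2 fold change of 1.49 in SmoA2 and 1.83 in Smo/Smo. None of them passed the test, and 9 in SmoA2 and 8 in Smo/Smo had an unadjusted p under 0.05; wild type replicate 3 is the array with the low mean. Of 10 granule lineage markers, Atoh1 rose in SmoA2 and none fell, while 7 were below 0, down to -0.54 in Gabra6, and the median was -0.05. Of these 10, 3 were lower and 2 higher at an unadjusted p under 0.05. Of the erythrocyte list only Alas2 was measured, with no call. The part of these cell types in the values of the members was not tested.

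**Figure D4:**
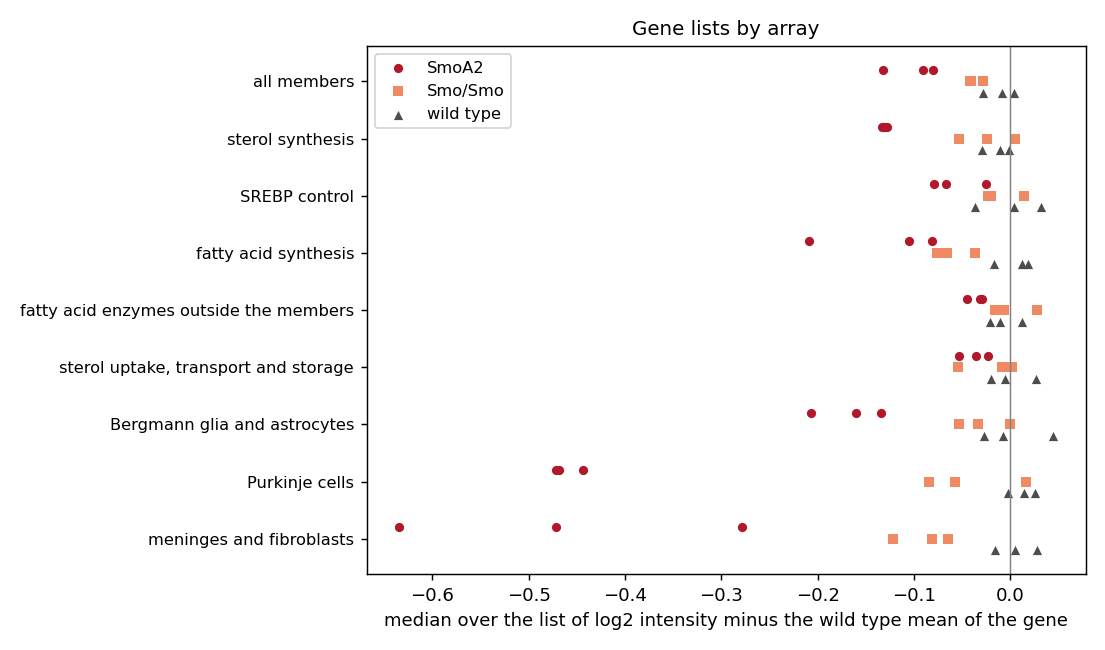
For each gene list and array, the median over the list of log2 intensity minus the wild type mean of the gene, with circles for SmoA2, squares for Smo/Smo and triangles for wild type. Sterol synthesis members lie at -0.13 in all 3 SmoA2 arrays, against -0.05 to 0.01 in Smo/Smo and -0.03 to 0.00 in wild type, and the glial, Purkinje and meningeal lists are also lowest in SmoA2.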

How the data were processed

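Total RNA of 9 cerebella was measured on custom Affymetrix arrays. The deposited intensity values were summarised with RMA, per the submitters' processing notes, which give no version. They are on a linear scale, and their log2 was taken. Of 38385 probe sets, 24478 carried 1 gene symbol in the platform annotation, 65 several and 13842 none; those with several or none were left out. The probe set with the highest mean stood for its gene. All tests used limma 3.58.1 in R 4.3.3 (lmFit, eBayes), with 1 model of all 9 arrays, a mean per group and no covariate, and Benjamini-Hochberg adjustment over 19147 genes. No set test was made. Members, lists and alternatives were chosen with earlier results of these data known. All members were named, and of each other list the called genes or up to 3 with the smallest p in SmoA2. Replicate numbers follow accession order. Sex was called from Xist and Y-linked genes. Alternatives were averaged probe sets, all probe sets as separate features, only genes above a mean log2 of 6, quantile normalization, centring on array medians, trend and robust eBayes, array weights, fits of 2 groups, sex as a covariate and leaving out arrays. The pipeline was tested on simulated data with planted changes larger than that of any member. How often changes as small as those of the members are found was not tested. The number of arrays limits the precision. Promoter sequences are from RefSeq. Figures were drawn with matplotlib 3.10.9.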

Additional observations from a re-analysis of the deposited data

Results flagged for a closer look

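The mutant groups differed from each other, by the direct limma test, in 3 genes of lipid metabolism outside the members. These were Fntb among 10 sterol and isoprenoid enzymes, and Abcg1 and Lcat among 20 genes of sterol uptake, transport and storage (10% of each list). None was called among 32 fatty acid genes, 7 oxysterol genes and 6 genes of SREBP processing. Over all genes, 2.56% were called in this comparison. Lcat was lower in SmoA2 than in Smo/Smo by a log2 difference of -0.61 (adjusted p = 0.00429), called in all 9 fits with 1 array left out (up to 0.0246). Fntb was higher in SmoA2 by 0.36 (adjusted p = 0.0094), lost without Smo/Smo replicate 2 (0.0521). Abcg1 was higher in SmoA2 by 0.37 (adjusted p = 0.0419), lost in 8 of 9 such fits. These differences share arrays with the comparisons against wild type.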

How the results depend on the processing

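The median of the members kept its sign in all 3 comparisons under the 10 other settings and 9 fits with 1 array left out, between -0.14 and -0.09 for SmoA2 against wild type, -0.04 and -0.01 for Smo/Smo against wild type, and -0.11 and -0.05 for SmoA2 against Smo/Smo. The count of members called in SmoA2 against wild type, 3 as reported, was 1 with arrays centred on their medians or with sex as a covariate, 0 with only the 2 groups compared and 0 without wild type replicate 3 and SmoA2 replicate 3 together. It was 2 with quantile normalization, where Fasn was lost (adjusted p = 0.0541), 2 with averaged probe sets, where Scd1 was lost, and 4 with trend and robust eBayes. It ranged from 0 to 1 when each array was left out. For SmoA2 against Smo/Smo it was 1 instead of 0 with genes above a mean log2 of 6, with quantile normalization, with trend and robust eBayes and with array weights (Mvd each time), and 0 to 1 with 1 array left out. For the F test, 1 as reported, it was 0 with the mean of all probe sets, with every probe set tested, with array centring, with sex as a covariate and without both arrays, 3 with the filter on low values, 2 with trend and robust eBayes, and 0 in every fit with 1 array left out. Fewer arrays or fewer degrees of freedom entered the fits of 2 groups, those without an array and that with sex as a covariate. What made the counts differ was not tested in any setting. Over all genes, the count called ranged from 215 to 776 for SmoA2 against wild type (515 as reported), from 21 to 162 for Smo/Smo against wild type (71), from 170 to 809 for SmoA2 against Smo/Smo (490) and from 268 to 933 in the F test (553). No paired analysis was possible because the labels give no replicate numbers that groups share.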
